A study of Mus musculus with 6 samples.

Results

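Cone photoreceptor nuclei were examined in single-nucleus RNA sequencing of rd10 mouse retinas, and 2472 of 56205 nuclei met the rule for them. The members were chosen by measured values. A nucleus had to hold over 500 UMIs (unique molecular identifiers, one per captured RNA molecule), at least 200 genes and under 5% mitochondrial UMIs. It also had to hold a UMI of at least 3 of the 8 cone genes Arr3, Pde6c, Opn1mw, Opn1sw, Cnga3, Gnat2, Cngb3 and Pde6h, including Arr3 or Pde6c. It could hold none of Trpm1, Slc17a6, Abca8a, Gad1, Slc6a9 or Inpp5d, which mark other retinal cells.

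All libraries came from retinas of rd10 mice (strain B6.CXB1-Pde6b-rd10/J), which carry a mutation in the rod phosphodiesterase gene Pde6b and were collected on postnatal day 20. The retinas had been injected into the vitreous on day 18, either with 20 ng of recombinant IL-27, a cytokine of the IL-12 family, or with saline, giving 3 IL-27 libraries (replicates 4, 5 and 10) and 3 saline libraries (replicates 1, 2 and 6). The study asked whether early IL-27 alters the degeneration. No retina without the rd10 mutation was part of the design, and the labels do not say whether the libraries of a group came from separate animals, so the p-values below measure the spread between these libraries.

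Cones are the photoreceptors of daylight and color vision. Light absorbed by a cone opsin activates the cone transducin (alpha subunit Gnat2), which switches on a cone phosphodiesterase (Pde6c with the inhibitory subunit Pde6h), and the fall in cyclic GMP closes a channel made of Cnga3 and Cngb3. Cone arrestin (Arr3) ends the signal. Mouse cones carry a short-wavelength opsin (S-opsin, Opn1sw), a middle-wavelength opsin (M-opsin, Opn1mw) or both, in proportions that change from the dorsal to the ventral retina, and thyroid hormone receptor beta (Thrb) and RXR gamma (Rxrg) are known regulators of the choice. In rd10 retinas the rods carry the genetic lesion and degenerate first, and cones follow.

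The cone nuclei numbered 464, 366 and 354 in saline replicates 1, 2 and 6 and 510, 423 and 355 in IL-27 replicates 4, 5 and 10. Their median depth was 2577, 2732.5 and 2406.5 UMIs in saline libraries and 2387, 2431 and 2497 in IL-27 libraries. Each library pair shared 18 to 30 barcode sequences among all nuclei. Levels are given as CPM, a gene's UMIs per 1000000 UMIs of the summed nuclei of a library, and values in a row follow the replicate order just given. In such sums, a lower level in every nucleus and a smaller number of nuclei with the RNA cannot be told apart.

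The rule bound loosely at its lower edge and tightly at its exclusion step. Exactly 6 of the 8 cone genes were seen in 840 cone nuclei (34.0%), and all 8 in 130. The 149 nuclei with exactly 3 cone genes lay just inside the rule and 337 nuclei with exactly 2 lay just outside it. Just inside, Slc24a2, the cone sodium-calcium-potassium exchanger, was at 728 CPM and Rxrg at 15.4 CPM. Just outside, they were at 218 and 3.38 CPM. Of 4479 nuclei that passed the cone genes, 2007 (44.8%) were set aside for a UMI of an excluded gene, most often Trpm1 (901 nuclei) or Slc6a9 (817 nuclei). Among the nuclei set aside, 1003 held a single such UMI. In those 1003 nuclei Slc24a2 was at 1114 CPM and Rxrg at 45.6 CPM, against 1335 and 51.7 CPM in the cone nuclei kept.

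The genes of the rule give a description and no test. Arr3 was detected in 95.5% of cone nuclei, Pde6c in 95.4% and Cngb3 in 95.3%. Pde6h was detected in 80.8%, Opn1mw in 74.8%, Gnat2 in 64.8%, Opn1sw in 37.2% and Cnga3 in 30.3%. A pair of libraries stood apart in these genes. IL-27 replicate 5 had the lowest level of both opsins, and IL-27 replicates 5 and 10 had the lowest levels of Arr3.

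Arr3 was at 5870, 5162 and 4997 CPM in saline libraries and at 6565, 3279 and 2433 CPM in IL-27 libraries. Pde6c was at 2150, 2117 and 1960 CPM against 2229, 2488 and 1573 CPM. Cngb3 was at 3176, 3237 and 3103 CPM against 4374, 2976 and 2379 CPM. In each of these genes the IL-27 libraries were spread on both sides of the narrow saline range, as the plot of the rule's genes by library shows.

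**Figure D1:**
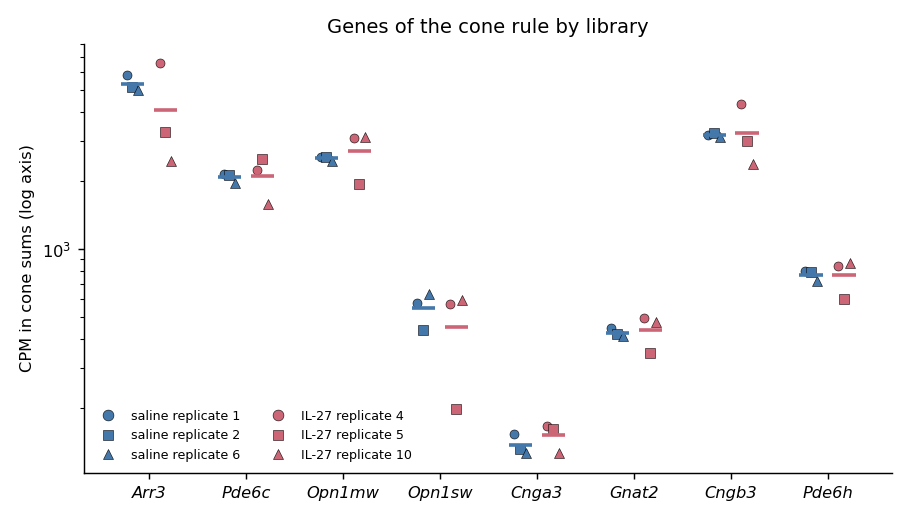
Levels of the 8 cone genes of the rule in the cone sums of each library, in CPM on a log axis. Each point is a library and each bar the mean of 3 libraries. Arr3 ranged from 2433 to 6565 CPM among the IL-27 libraries and from 4997 to 5870 CPM among the saline libraries.

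Cone genes outside the rule bore out the label for 8 of 10. Rxrg was at 51.7 ± 10.5 CPM (SD, n = 6 libraries) in cone nuclei, at 1.74 CPM in rod nuclei and at 6.18 CPM over all nuclei. Slc24a2 was at 1335 ± 152 CPM in cones, 44.5 in rods and 238 over all nuclei. Ccdc136 was at 682 ± 142 CPM in cones and 19.4 in rods, and the secreted factor Tafa3 at 370 ± 55.6 and 19.8. Gnb3, the cone transducin beta subunit, was at 1088 ± 117 CPM in cones and 471 in rods. Gngt2, Thrb and the potassium channel subunit Kcne2 were likewise higher in cones than in rods and over all nuclei. The guanylate cyclase gene Gucy2f went the other way, with 36.6 CPM in cones and 310 CPM in rods, and Lrrfip1 was at 28.9 CPM in cones and 67.3 CPM over all nuclei. Rods here are 7989 nuclei with at least 3 of 10 rod genes, including Nrl or Pde6a, without Arr3, Pde6c or an excluded gene, and their median depth was 1338 UMIs.

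Markers of other cell types were measurable in cone nuclei. Summed over 7 bipolar markers, cone nuclei held 582 ± 216 CPM against 3144 CPM over all nuclei (18.5%), and over 5 amacrine markers 160 ± 35.9 against 761 CPM (21.0%). Over 7 Muller glia markers they held 874 ± 105 against 1344 CPM (65.1%), of which the secreted Apoe made 462 CPM in cones and 466 CPM over all nuclei. Over 6 microglia markers they held 77.5 ± 15.1 against 164 CPM (47.3%). Of the 15 rod markers none was at 0, and their sum was 4382 ± 594 CPM in cones against 2348 CPM over all nuclei, with Sag, the arrestin gene read in both photoreceptors, at 2447 CPM in cones. Among 4 pigment epithelium markers, 1 was at 0 in cones, and the sum was 13.5 CPM in cones and 12.1 CPM over all nuclei.

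Beyond genes of the rule, the widest ratios of cone to rod levels fell on genes with little RNA in rods. These ratios follow from how the nuclei were chosen and carry no test. Plcz1, a phospholipase C best known from sperm, was at 112 ± 23.5 CPM in cones and 0.284 CPM in rods, from 4 rod UMIs. Eya1, a transcriptional cofactor and phosphatase, was at 200.5 and 1.90 CPM. Mapk4, an atypical MAP kinase, was at 440 and 9.06 CPM.

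Abcb1b, a multidrug transporter, was at 178 and 1.71 CPM, and Crp, the C-reactive protein gene, at 116 and 1.18 CPM. The lipid enzymes Gpat3 and Elovl7 were at 132 and 108 CPM in cones and at 1.94 and 2.03 CPM in rods. All 20 genes with the widest ratio among those of at least 50 CPM in cones were higher in cones in 6 of 6 libraries. Their choice by the ratio in these same libraries favours that count. Of these 20 genes, 7 are numbered gene models such as Gm15997 (285 CPM in cones, 0.898 in rods).

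Among cone nuclei Nrxn3, a presynaptic adhesion protein, varied most, and both opsins were among the 15 most variable genes. The variance left after depth was taken into account was 17.8 for Nrxn3 against a median of 1.12 over 7418 genes (means over the 6 libraries). Kcnip4, a potassium channel partner, followed with 8.81, and Arr3 with 8.43. Opn1mw ranked eighth with 6.06 and Opn1sw twelfth with 5.38. Several other leading genes, among them Kcnip4, Zfp804b and Pcdh9, were lower in cones (931, 545 and 431 CPM) than over all nuclei (4880, 3058 and 4194 CPM). The part of RNA from other cells in their variance was not tested.

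The S-opsin and M-opsin promoters are printed here since the opsins split the cone nuclei below, with the Arr3 and Gnat2 promoters as cone genes that both kinds of cone use. Each line gives the 250 bases before the transcription start (RefSeq, GRCm38.p6, gene strand). Capitals mark TAATC, the core of the sites that the photoreceptor factors CRX and OTX2 are known to bind, and AGGTCA, the half-site of nuclear receptors, on either strand (GATTA and TGACCT on the other). In the Gnat2 line the capitals also take in the preceding base, which gives the longer TAATCC on the other strand. The Opn1sw promoter lies at chr6:29380514-29380763 (minus strand), Opn1mw at chrX:74127216-74127465 (plus), Arr3 at chrX:100605247-100605496 (plus) and Gnat2 at chr3:108092816-108093065 (plus).
Opn1sw: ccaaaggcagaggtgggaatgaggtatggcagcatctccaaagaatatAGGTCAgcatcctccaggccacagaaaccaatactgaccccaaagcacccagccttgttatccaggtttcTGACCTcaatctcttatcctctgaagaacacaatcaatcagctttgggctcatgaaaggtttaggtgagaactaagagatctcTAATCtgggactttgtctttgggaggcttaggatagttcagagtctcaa
Opn1mw: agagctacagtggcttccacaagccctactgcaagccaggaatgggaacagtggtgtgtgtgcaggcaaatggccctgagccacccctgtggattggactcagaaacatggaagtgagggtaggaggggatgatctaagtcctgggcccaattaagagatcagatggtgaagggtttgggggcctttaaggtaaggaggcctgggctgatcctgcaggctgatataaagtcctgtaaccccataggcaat
Arr3: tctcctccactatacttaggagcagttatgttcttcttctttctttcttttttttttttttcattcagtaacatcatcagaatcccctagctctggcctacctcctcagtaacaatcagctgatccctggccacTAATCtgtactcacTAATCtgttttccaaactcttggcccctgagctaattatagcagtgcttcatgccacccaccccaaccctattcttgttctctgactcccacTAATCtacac
Gnat2: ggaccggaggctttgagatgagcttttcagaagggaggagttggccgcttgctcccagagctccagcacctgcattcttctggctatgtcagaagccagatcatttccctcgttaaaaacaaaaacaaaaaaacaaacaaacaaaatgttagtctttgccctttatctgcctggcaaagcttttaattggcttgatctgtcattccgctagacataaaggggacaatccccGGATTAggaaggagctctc

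In the Opn1sw promoter, TAATC starts 49 bases before the transcription start, and AGGTCA lies 202 and, reversed, 132 bases before it. Arr3 holds TAATC 116, 102 and 10 bases before its start, and Gnat2 holds the reversed core 18 bases before its start. The Opn1mw window holds neither string of letters. Of 32851 mouse promoters of this length, 19.8% hold TAATC and 14% hold AGGTCA, so single matches are common.

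By opsin UMIs the cone nuclei fell into 283 with S-opsin only, 1213 with M-opsin only, 637 with both and 339 with neither. The classes follow from the counts themselves and depend on depth. Opn1sw was seen in 37.2% of cone nuclei (exact binomial 95% interval 35.3 to 39.2) and in 4.19% of rod nuclei, which should lack it. Opn1mw was seen in 74.8% (73.1 to 76.5) and in 5.09% of rod nuclei. Rod nuclei were shallower, so each nucleus was also thinned to 1000 UMIs, leaving out 52 cone and 1692 rod nuclei. Then Opn1sw was seen in 26.0% of cone and 2.53% of rod nuclei, and Opn1mw in 67.6% and 3.45%. The intervals hold counting error alone. At either depth the background in rods was well below the cone shares.

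Nuclei with S-opsin only numbered 46, 44 and 61 in saline libraries and 39, 40 and 53 in IL-27 libraries. Nuclei with M-opsin only numbered 222, 190 and 150 against 266, 228 and 157. Every library held all 4 classes, and M-opsin only was the largest class in each. Neither opsin was seen in 10.1%, 11.7% and 9.32% of cone nuclei in saline libraries and in 8.43%, 25.3% and 18.6% in IL-27 libraries. IL-27 replicate 5 was highest, with 107 such nuclei, and the groups overlapped.

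**Figure D2:**
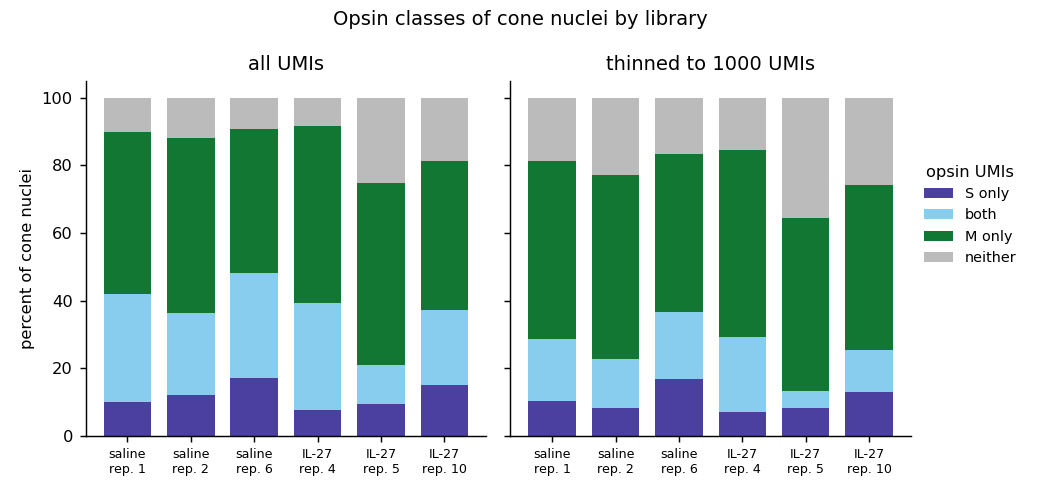
Share of cone nuclei in each library with UMIs of S-opsin only, both opsins, M-opsin only or neither, from all UMIs and after each nucleus was thinned to 1000 UMIs. M-opsin only was the largest class in every library, and IL-27 replicate 5 had the largest share with neither (25.3% with all UMIs).

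Among 1565 nuclei with at least 5 opsin UMIs, the S-opsin share of a nucleus was mostly at an end of its range. It was 0 in 913 nuclei (58.3%) and 1 in 96 nuclei (6.13%). Between the ends, 360 nuclei (23.0%) lay over 0.1 and up to 0.5, and 91 lay over 0.5 and up to 0.9. Pooled over nuclei, Opn1sw made 18.6%, 14.7% and 20.5% of opsin UMIs in saline libraries and 15.6%, 9.20% and 16.0% in IL-27 libraries.

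The means were 17.9% ± 2.96 and 13.6% ± 3.83 (SD, n = 3), a difference of −4.33 percentage points with overlapping groups, given as a description since the opsins are genes of the rule. Without IL-27 replicate 5 the difference was −2.12 points. Opsin UMIs of both kinds together made 3.11, 2.98 and 3.08 per 1000 UMIs in saline libraries and 3.66, 2.13 and 3.71 in IL-27 libraries.

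The share of cone nuclei in the retina did not separate the groups. Cones were 4.69%, 4.13% and 3.76% of nuclei in saline libraries and 5.43%, 4.58% and 3.78% in IL-27 libraries. The means were 4.19% ± 0.472 and 4.60% ± 0.826 (two-sided exact permutation p = 0.6, where 3 against 3 cannot go below 0.1). As a share of cones and rods together, cones made 28.4%, 20.9% and 25.7% against 25.3%, 30.1% and 15.6% (exact permutation p = 0.8), so the sign of the difference turned with the denominator.

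The comparison of S-opsin with M-opsin nuclei asked which genes other than the opsins differ between the kinds of cone. It used the S-only and M-only nuclei of the same library, summed, with the library as a block. Their median depths by library ran from 2042 to 2778.5 UMIs in S-only and from 2453 to 2701.5 UMIs in M-only nuclei. Of 5255 genes tested, 346 were called (6.58%; edgeR quasi-likelihood, Benjamini-Hochberg adjusted p under 0.05), 153 higher in S-opsin nuclei (2.91%) and 193 lower (3.67%). DESeq2 called 185. In the saline libraries alone 199 genes were called and in IL-27 libraries alone 152. These fits share no library, and 97 genes were called in both, which is 48.7% of the first and 63.8% of the second. Of the 180 genes called in saline that were tested in IL-27, 172 had the same sign there, against 59.3% of all 5059 genes tested in both.

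Genes higher in S-opsin nuclei were led by Nrxn3. It was at 5353, 4122 and 4166 CPM in S-opsin nuclei of the saline libraries and at 7508, 3540 and 7153 CPM in those of the IL-27 libraries. In M-opsin nuclei it was at 1444, 751 and 956 CPM and at 943, 972 and 1089 CPM. The classes did not overlap, and the log2 fold change was 2.34 ± 0.10 (SE; edgeR adjusted p = 3.17e-19). Nrxn3 was also high in nuclei with neither opsin (4994 ± 1938 CPM) and over all retinal nuclei (8924 CPM), but was at 1796 CPM in rods and 1245 CPM in nuclei with both opsins. The part of other cells in its level was not tested.

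Ccdc136, the coiled-coil gene next to Opn1sw, was at 1225, 1505 and 1325 CPM in saline and 1568, 1312 and 1842 CPM in IL-27 S-opsin nuclei. In M-opsin nuclei it was at 299, 393 and 284 CPM and at 261, 350 and 574 CPM. The classes did not overlap, with a log2 fold change of 2.04 ± 0.10 (edgeR adjusted p = 3.43e-18), and rods held only 19.4 CPM. Tenm3, a teneurin that guides synaptic partners, was at 610 ± 86.8 CPM in S-opsin and 205 ± 33.9 CPM in M-opsin nuclei (SD, n = 6). The lipid transfer protein gene Pitpnc1 was at 341 and 97.0 CPM, with a log2 fold change of 1.78.

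Fgfr2, a fibroblast growth factor receptor, was at 2390 ± 230 CPM in S-opsin and 1402 ± 110 CPM in M-opsin nuclei, and Trhde, an enzyme that degrades thyrotropin-releasing hormone, at 559 ± 141 and 234 ± 43.5 CPM. Sag, the arrestin of rods that cones also carry, was at 3675 ± 408 and 2023 ± 224 CPM (log2 fold change 0.85). The noncoding genes 5430419D17Rik, Gm12239 and Mir124-2hg, the host of a neuronal microRNA, rose by 1.84, 1.49 and 0.91 on the log2 scale. Gm10419 was at 78.1 ± 26.5 CPM in S-opsin and 1.99 ± 2.54 CPM in M-opsin nuclei, with 3 M-opsin sums at 0.

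Among the genes lower in S-opsin nuclei was Rgs7, a regulator that shortens G protein signals. Rgs7 was at 91.9, 378 and 281 CPM in saline and 235, 396 and 367 CPM in IL-27 S-opsin nuclei. In M-opsin nuclei it was at 1145, 1092 and 902 CPM and at 1105, 1360 and 1391 CPM. The log2 fold change was −2.02 ± 0.14 (edgeR adjusted p = 1.02e-13), and nuclei with both opsins were at 901 CPM. The GABA-A receptor subunit gene Gabrg3 was at 64.1 ± 24.2 and 352 ± 57.9 CPM (−2.43), and the calcium-activated potassium channel gene Kcnma1 at 404 ± 124 and 1122 ± 120 CPM (−1.48). In all 3 genes the S-opsin and M-opsin sums did not overlap. The transcription factor gene Tshz2 was at 127 ± 49.5 and 462 ± 56.5 CPM, and the adaptor gene Samsn1 at 77.5 ± 36.9 and 345 ± 46.6 CPM. The adhesion genes Mdga2 and Edil3 fell by 1.50 and 1.59 on the log2 scale, the DNA glycosylase gene Smug1 by 2.12 and the sterol-binding protein gene Osbpl3 by 1.10. Of the numbered gene models, B130024G19Rik fell by 2.20 and 4930434J06Rik was at 89.1 ± 44.1 CPM in M-opsin nuclei and at 0 in 5 of 6 S-opsin sums. Each of these genes kept its call and its direction in every alternative that could be fitted for it.

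**Figure D3:**
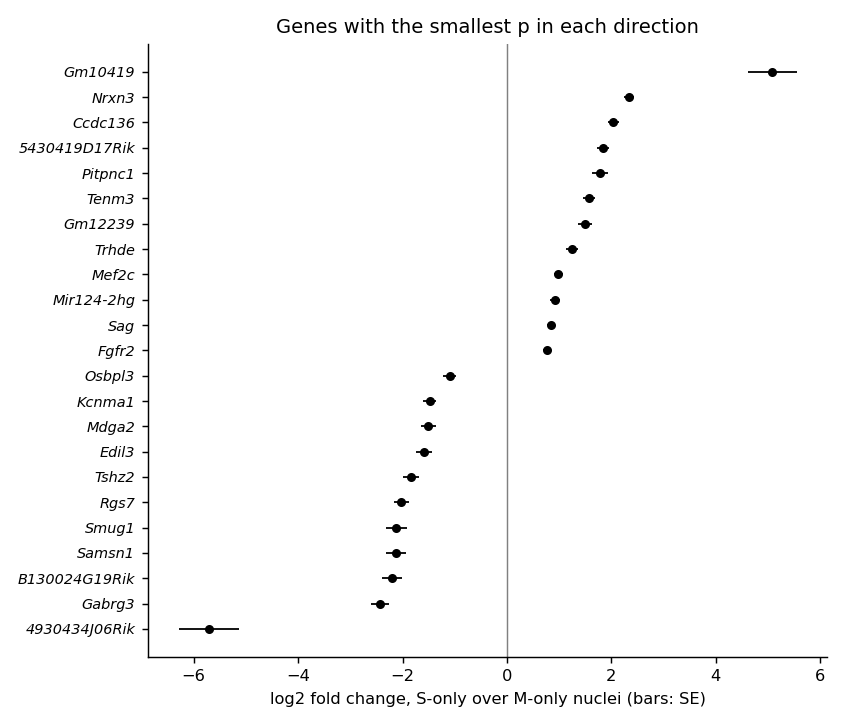
Log2 fold change of S-opsin-only over M-opsin-only nuclei for the leading genes in each direction by adjusted p that lay on the same side in all 6 libraries. Points are edgeR estimates and bars their SE. Most lay between 0.76 and 2.34 above or between 1.10 and 2.43 below 0, and the noncoding genes Gm10419 (5.08) and 4930434J06Rik (−5.71) lay outside.

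Of 18 photoreceptor transcription factors tested, 7 were higher and 2 lower in S-opsin nuclei (2.91% and 3.67% of all genes), with a median log2 fold change of 0.29 against 0.02 over all genes. Thrb, the receptor that favours M-opsin, was at 1041 ± 204 CPM in S-opsin and 1684 ± 131 CPM in M-opsin nuclei (log2 fold change −0.71, edgeR adjusted p = 2.16e-07). By library it was at 812, 1253 and 1045 CPM and 800, 1267 and 1072 CPM in S-opsin nuclei against 1484, 1666 and 1615 CPM and 1791, 1856 and 1690 CPM in M-opsin nuclei, with no overlap.

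Its partner Rxrg went the other way, with 84.9 ± 19.8 and 44.7 ± 14.5 CPM (0.93, edgeR adjusted p = 0.0148), and lost the call in 8 of 20 alternatives. Mef2c, an activity-dependent factor, was at 1066 ± 280 and 538 ± 143 CPM (0.98), and Otx2, which drives photoreceptor fate, at 348 ± 46.5 and 210.0 ± 35.0 CPM (0.72). Samd7, a Polycomb partner that silences S-opsin in rods, was lower in S-opsin nuclei, with 61.2 ± 37.8 against 178 ± 22.5 CPM (−1.51). Its relative Samd11 was higher (87.3 and 39.1 CPM) and lost the call in 5 of 19 alternatives. Crx was level at 448 ± 56.7 and 432 ± 59.8 CPM (edgeR adjusted p = 0.944). Rorb, Neurod1 and Mef2d were called higher but lost the call in 14 of 22 alternatives each.

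Of 19 shared phototransduction genes, 4 were higher in S-opsin nuclei and none lower, with a median log2 fold change of 0.23. Over all genes 2.91% were higher and 3.67% lower, with a median of 0.02. They were Gnb3 (1506 ± 207 and 914 ± 101 CPM), the opsin kinase Grk1 (260.5 and 169 CPM), the G protein subunit Gnb5, which partners Rgs9, and the cyclase activator Guca1b. Gnb5 lost the call in 13 of 22 alternatives, Guca1b in 10 and Grk1 in 4. Of 14 rod markers tested, 8 were higher, among them Sag, Pde6b, Pde6a, Cngb1, Gngt1, Gnb1 and Pde6g, and only Samd7 was lower, with a median of 0.63. Pde6b was at 204 CPM in S-opsin and 106 CPM in M-opsin nuclei. Of 22 alternatives, the call was lost in 12 for Pde6g, 11 for Gngt1, 11 for Gnb1 and 7 for Pde6a, and for Cngb1 in 5 of 18.

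Summed over the rod list, S-opsin nuclei were at 7383, 5865 and 6424 CPM in saline and 6878, 5089 and 5930 CPM in IL-27 libraries, and M-opsin nuclei at 3834, 4051 and 4375 CPM and 3626, 3025 and 4313 CPM. The classes did not overlap. Sag, which cones also carry, made the larger part of both mean sums (6261 and 3871 CPM) and of the gap between them. With nuclei that held a UMI of the rod factors Nrl or Nr2e3 left out, the sums were 5262 ± 451 and 3335 ± 437 CPM. In that fit 4 of 10 rod markers tested were higher and 1 lower, against 121 higher and 147 lower of all 4221 genes. Muller glia markers summed to 1015 and 862 CPM, bipolar markers to 595 and 431 CPM and amacrine markers to 154 and 158 CPM in S-opsin and M-opsin nuclei. Nrl itself was at 67.6 ± 20.7 and 43.8 ± 9.63 CPM (edgeR adjusted p = 0.175). The part of rod RNA in these differences was not tested.

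Of the cone genes outside the rule, 4 of 9 were higher in S-opsin nuclei (Ccdc136, Gnb3, Rxrg and Tafa3) and Thrb was lower, against 2.91% higher and 3.67% lower of all genes. Gnb3, Rxrg and Thrb were also counted in lists above, as Samd7 was among both factors and rod markers, so the lists share calls. Tafa3 lost the call in 12 of 22 alternatives. Slc24a2 was at 1195 ± 146 and 1383 ± 184 CPM (edgeR adjusted p = 0.0929). Genes of the rule are given with no test. Arr3 was at 2375 ± 806 CPM in S-opsin nuclei and 5927 ± 1659 CPM in M-opsin nuclei, lower in S-opsin nuclei of 6 of 6 libraries, while Pde6h was at 836 and 781 CPM, Gnat2 at 527 and 408 CPM and Cngb3 at 3674 and 3381 CPM.

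Outer segment and synapse genes were called at shares near the 6.58% of all genes. Of 24 outer segment and cilium genes, the axoneme gene Rp1 was higher (725 ± 189 and 494 ± 48.9 CPM) and the matrix proteoglycan gene Impg1 was lower (378 ± 114 and 571 ± 55.3 CPM). Of 27 ribbon synapse genes, Nrxn3 was higher, and the active-zone gene Erc2 (574 ± 61.4 and 806 ± 72.9 CPM) and the glutamate transporter gene Slc1a2 (1061 and 1274 CPM) were lower, of which Slc1a2 lost the call in 12 of 22 alternatives. Of 5 visual cycle genes, the retinoid carrier Rbp3 was lower, with 473 and 600.4 CPM, and lost the call in 13 of 22 alternatives. Heat shock (14 tested), cell death (9), glycolysis (16) and mTOR and insulin genes (14) held no call.

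Among IL-27 signalling genes, Stat2 (103 ± 63.7 and 57.6 ± 17.8 CPM, edgeR adjusted p = 0.0355) was called higher in S-opsin nuclei, and lost the call in 10 of 20 alternatives. Of 11 interferon response genes tested, the RNA sensor Ddx58 was higher (95.2 ± 42.3 and 42.8 ± 26.7 CPM; 2.91% of all genes were higher), and lost the call in 2 of 20 alternatives. None of the 20 dorsoventral patterning genes was abundant enough to test. Vax2, a ventral factor, was at 26.4 ± 14.4 CPM in S-opsin and 13.0 ± 7.22 CPM in M-opsin nuclei. Its antisense partner Vax2os, looked up after its value was seen, was called higher (195 ± 48.8 and 50.1 ± 28.5 CPM, log2 fold change 1.97), and reads of the pair cannot be told apart unless the counting used strand.

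**Figure D4:**
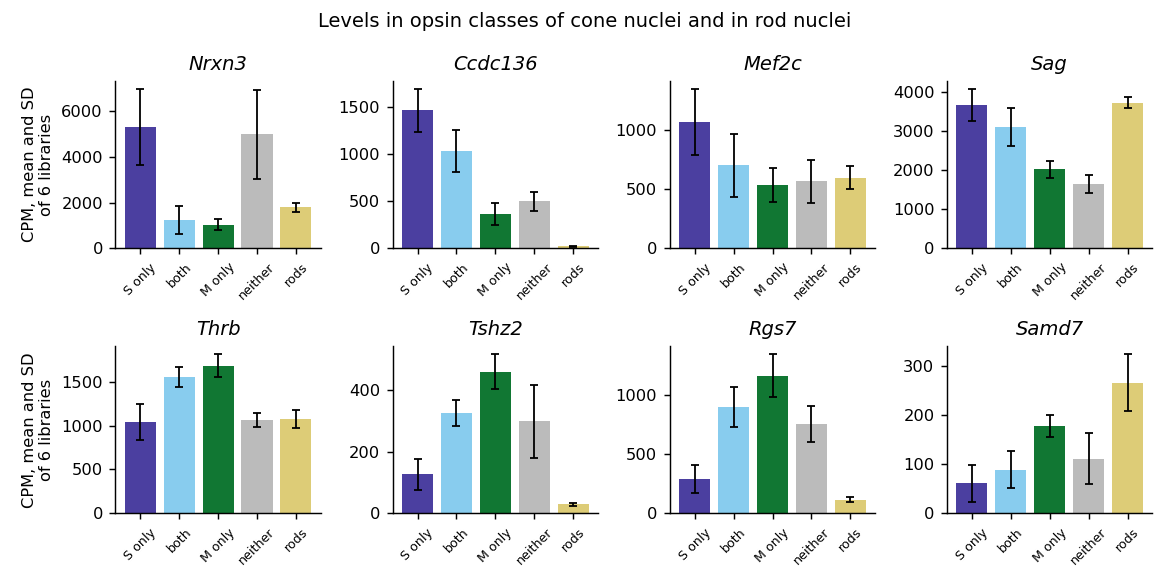
Mean level (CPM, bars with SD over 6 libraries) of 8 genes in nuclei with S-opsin only, both opsins, M-opsin only or neither, and in rods. In nuclei with both opsins Ccdc136, Rgs7 and Tshz2 lay between the levels of the single-opsin classes, and Nrxn3 was high in S-opsin nuclei (5307 CPM) and in nuclei with neither (4994 CPM).

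Nuclei with both opsins, which took no part in the test, mostly lay between the classes. This held for 129 of the 153 genes higher in S-opsin nuclei and for 154 of the 193 genes lower there. They were closer to the M-opsin level for 116 and 135 of these genes. Nuclei with neither opsin also lay between for 105 and 131 of them, and were closer to the M-opsin level for 110 and 88. Thrb, for instance, was at 1551 CPM in nuclei with both opsins, and Arr3 at 4645 CPM. The genes counted were called for a gap between the single-opsin classes, which by itself favours a place between them. The share over all genes was not taken, so these counts are a description.

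The genes around the opsins were looked at after values of neighbouring genes such as Ccdc136 were seen. Positions are those of GENCODE M21 (GRCm38). Within 300000 bases of Opn1sw (chr6:29376671-29388468, minus strand) lie 16 other genes, of which 6 were tested and 2 called, both higher in S-opsin nuclei. Of all genes tested, 2.91% were called higher. Since the call of Ccdc136 was known before the look, the count of neighbours is a description. Ccdc136 (chr6:29396309-29426994, plus strand) begins 7841 bases from the outer end of this GENCODE gene interval, which reaches further upstream than the RefSeq start used for the promoter. Calu, a calcium-binding protein gene at chr6:29348069-29377110 on the plus strand, overlaps the 3′ end of Opn1sw and was at 146 ± 56.8 CPM in S-opsin and 48.8 ± 16.7 CPM in M-opsin nuclei (log2 fold change 1.56, edgeR adjusted p = 3.26e-06).

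Within the same distance of Opn1mw (chrX:74127464-74150760, plus strand) lie 25 other genes, which are reported here in part. Tex28 (chrX:74150944-74167838, minus strand), 184 bases past the end of Opn1mw, was too low to test, with 1.24 CPM in S-opsin and 28.4 CPM in M-opsin nuclei. The counts of Calu are uncertain, since it overlaps Opn1sw on the opposite strand and whether the counting kept strand is not given in the sources used here. The other 4 tested neighbours of Opn1sw were not called, nor was Taz near Opn1mw (0.82, edgeR adjusted p = 0.0519).

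**Figure D5:**
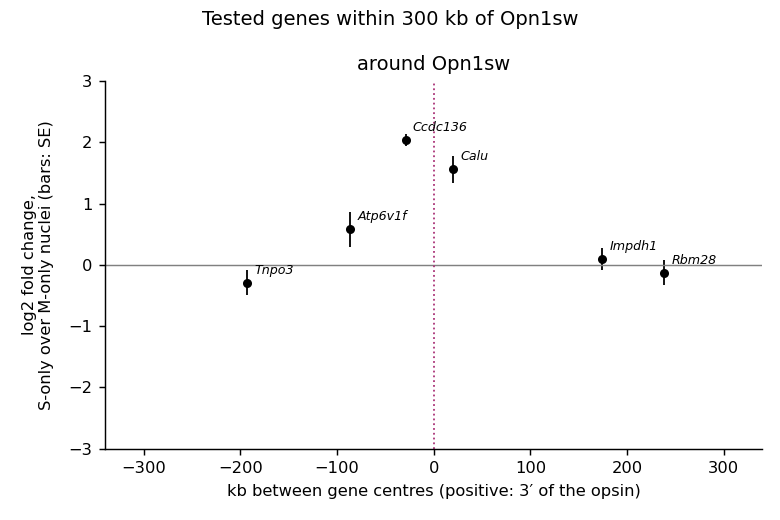
Log2 fold change of S-opsin-only over M-opsin-only nuclei (points, with SE bars) for the tested genes within 300000 bases of Opn1sw, by the distance of gene centres from that of Opn1sw. Ccdc136 (2.04) and Calu (1.56) were called, and the other 4 genes were not.

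In the promoters of the genes called, TAATC was found in 28.2% of 103 genes higher in S-opsin nuclei, in 18.0% of 150 genes lower there and in 18.4% of 4105 genes tested. AGGTCA was found in 15.5%, 13.3% and 13.1%. Genes with no promoter in the table were left out. These shares are descriptions and were not tested.

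The comparison of IL-27 with saline within cone nuclei asked whether cones responded to the cytokine. None of 10431 genes tested was called (0%; edgeR quasi-likelihood, Benjamini-Hochberg), 373 had an unadjusted p under 0.05 (169 higher and 204 lower), and DESeq2 called 0, with 118 under 0.05 unadjusted. The receptor subunit gene Il27ra was seen in only 2 UMIs over all cone nuclei. Its partner Il6st (gp130) was at 41.9, 33.6 and 34.5 CPM in the saline and 37.9, 41.4 and 32.2 CPM in IL-27 libraries. In 906 genes (8.69%) the 3 IL-27 libraries all lay above (391) or all below (515) the saline libraries.

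Of the 12 IL-27 signalling genes tested, 7 were higher and 5 lower with IL-27, with a median log2 fold change of 0.02 against −0.00 over all genes, and 2 were separated by group (16.7%, against 8.69% of all genes). Stat3 was at 205, 235 and 213 CPM in the saline and 205, 342 and 258 CPM in IL-27 libraries. The feedback gene Socs3 was at 13.2, 17.3 and 18.2 CPM against 8.51, 18.1 and 33.2 CPM. In both genes the groups overlapped. The kinase gene Jak2 was at 69.9, 68.1 and 65.9 CPM against 43.3, 64.6 and 45.7 CPM, below every saline library (edgeR unadjusted p = 0.0486, adjusted p = 0.999).

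Of 25 interferon response genes, 22 had a log2 fold change above 0 (median 0.13) but none was separated by group. The sign of this median rested on single libraries, being −0.03 when saline replicate 6 was left out and −0.10 when IL-27 replicate 5 was. Ddx58, for instance, was at 72.1, 70.9 and 25.3 CPM in the saline and 25.5, 78.4 and 69.6 CPM in IL-27 libraries, so that 1 library of each group was low. Rnf213, with the smallest p of the list, was at 59.6, 44.5 and 45.6 CPM against 41.8, 98.2 and 93.5 CPM.

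Heat shock genes had the largest share of separated members among the lists of 10 or more. Of 18 tested, 6 were separated (33.3%, against 8.69% of all genes), 5 below and 1 above, with a median of −0.16, and leaving out a library moved the median between −0.23 and −0.11. With doublets by Scrublet left out it was −0.10. Among markers of other cells, 5 of 5 amacrine genes (median −0.36) and 5 of 7 Muller glia genes (−0.12) were lower with IL-27. The medians of bipolar (0.17), horizontal (0.44), ganglion (0.18) and microglia (0.18) markers lay above 0. The part of other cells in the heat shock values was not tested. Hspa8, the constitutive HSP70, was at 188, 139 and 208 CPM in the saline and 131, 115 and 125 CPM in IL-27 libraries (log2 fold change −0.52 ± 0.15, edgeR adjusted p = 0.999). Hsp90ab1 was at 126, 124 and 124 CPM against 108, 87.9 and 102 CPM, and Hsp90aa1 at 260, 223 and 257 CPM against 218, 159 and 216 CPM. Trap1, the mitochondrial HSP90, lay the other way, at 20.6, 24.5 and 22.3 CPM against 34.8, 41.4 and 32.2 CPM. None passed the adjusted threshold.

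Of 15 rod markers in cone nuclei, 14 had a log2 fold change below 0 with IL-27 (median −0.26), and none was called. The groups were separated in 3 of the 15 (20.0%, against 8.69% of all genes). Pde6b, the gene mutated in rd10, was at 124, 150 and 214 CPM in the saline and 105, 93.0 and 107 CPM in IL-27 libraries. Without IL-27 replicate 5 the median was −0.02, with 9 of 15 lower. It was −0.47 (14 of 15 lower) with doublets by Scrublet left out. Leaving out nuclei with a UMI of Nrl or Nr2e3 gave −0.15 (10 of 13 lower). Over all nuclei the rod list summed to 2086, 2384 and 2094 CPM in the saline and 2425, 1539 and 3561 CPM in IL-27 libraries. The part of rod RNA among cone nuclei in these values was not tested.

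Cone genes outside the rule had a median of 0.08 over 10 genes, with 6 higher, which moved to −0.00 when IL-27 replicate 10 was left out. Rxrg was at 42.7, 40.9 and 49.6 CPM in the saline and 51.0, 69.8 and 56.1 CPM in IL-27 libraries, above every saline library (edgeR unadjusted p under 0.05, adjusted p = 0.999). Of 19 shared phototransduction genes 8 were higher and 11 lower (median −0.05), which turned to 12 higher and 7 lower (0.03) without IL-27 replicate 5. Without saline replicate 1 the median was −0.11, with 14 of 19 lower. In this list Rgs9bp, the anchor of the Rgs9 complex, was at 78.0, 85.4 and 95.2 CPM against 60.3, 55.1 and 61.3 CPM. Photoreceptor factors (20 tested, median 0.02), glycolysis genes (23, −0.08), cell death genes (20, −0.08) and mTOR and insulin genes (21, −0.03) stood near the median of all genes. Leaving out a library in turn moved the medians of the last 3 lists between −0.17 and 0.07. The groups were separated in 5 of the mTOR and insulin genes (23.8%) and 3 of the photoreceptor factors (15%), against 8.69% of all genes. Of the glycolysis list, 1 gene was separated, and it was Hk2 (396, 399 and 418 CPM against 371, 304 and 330.4 CPM).

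Among single genes separated by group with at least 20 CPM on average, the smallest p-values below saline belonged to Mgat4c, Khdrbs2, Fgf14, Ptprk, Nav3 and Smap2. For Ptprk the log2 fold change of −1.20 turned to 0.51 when nuclei of outlying depth were left out. Mgat4c, an enzyme of N-glycan branching, was at 107, 80.9 and 99.3 CPM in the saline and 58.8, 42.2 and 38.4 CPM in IL-27 libraries (log2 fold change −1.02 ± 0.19, edgeR adjusted p = 0.523). Khdrbs2, a splicing regulator, was at 49.3, 43.6 and 40.5 CPM against 13.9, 26.7 and 10.4 CPM (edgeR adjusted p = 0.646). Over all nuclei Mgat4c was at 899 to 1086 CPM and Khdrbs2 at 271 to 316 CPM, above their levels in cones. In rods Mgat4c was at 217, 216 and 234 CPM in saline libraries and at 155, 168 and 151 CPM in IL-27 libraries, so it was lower with IL-27 there too.

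Above saline were Srrm1, Nudt13, Scfd2, Clcn7, Nova1 and Trap1. Srrm1, a splicing cofactor, was at 126, 129 and 145 CPM in the saline and 186, 183 and 202 CPM in IL-27 libraries (0.52 ± 0.13, edgeR adjusted p = 0.999). Nova1, a neuronal splicing factor, was at 58.8, 60.9 and 61.8 CPM against 84.3, 103 and 76.9 CPM. The smallest adjusted p of all (0.228) belonged to Prss56, a serine protease gene below that level, named after its value was seen. Prss56 was at 0.735, 1.82 and 1.01 CPM in the saline and 9.28, 12.9 and 12.5 CPM in IL-27 libraries. Over all nuclei it was at 0.8 to 2.0 CPM in the saline and 14.7 to 40.0 CPM in IL-27 libraries, and in rods at 0 to 4.3 and 13.9 to 28.4 CPM.

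Whether IL-27 acted differently on the kinds of cone, or on cones and rods, was tested as the difference of effects. Of 6380 genes, none had a treatment effect that differed between S-opsin and M-opsin nuclei (0%; edgeR quasi-likelihood, smallest adjusted p = 0.0646), 272 had an unadjusted p under 0.05, and DESeq2 called 0. Between cones and rods, 1 of 12283 genes was called (0.00814%), with 527 under 0.05 unadjusted and 1 called by DESeq2.

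That gene was Fgf14, a modulator of neuronal sodium channels. In cones it was at 94.1, 62.7 and 113 CPM in the saline and 37.9, 36.2 and 55.1 CPM in IL-27 libraries. In rods it was at 119, 89.3 and 124 CPM against 168, 138 and 144 CPM. The groups did not overlap in either cell class and lay in opposite order. The difference of effects was −1.50 ± 0.19 on the log2 scale (edgeR adjusted p = 0.0118), and was −0.37 with no call when nuclei of outlying depth were left out. The level over all nuclei was 789 ± 49.8 CPM in saline and 801 ± 98.8 CPM with IL-27, many times that in either photoreceptor, and the part of other cells in it was not tested.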

How the data were processed

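Nuclei from 6 frozen rd10 retina samples were sequenced after droplet capture (10x Genomics). The authors made UMI counts with Cell Ranger and deposited them as whole numbers without normalization. The labels name version 9.0.1 and the matrix headers 8.0.1, and no genome build was given in the sources used here. Identifiers matched GENCODE M21 for 99.6% of 32285 genes. The cone members and all gene lists were chosen with earlier results of these data known. Counts of the nuclei were summed per library. Low genes were dropped (filterByExpr, 10 counts), TMM set the scale, and edgeR 4.0.16 in R 4.3.3 gave quasi-likelihood tests with Benjamini-Hochberg adjustment over all genes tested at 0.05. The 14 genes of the rule were left out of the calls between S and M nuclei. CPM were taken from the deposited counts without TMM. Doublets were kept, and left out by Scrublet score (scanpy 1.11.5, expected 8%) as an alternative. In S against M nuclei the library was a block, since both classes share a retina. Single values used exact permutation tests.

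Genes named were all of the cone, phototransduction, factor, patterning and IL-27 lists, the 4 smallest p per direction of other lists, the 6 per direction with the smallest p among separated genes of at least 20 CPM (IL-27), 12 per direction (S against M), up to 6 (differences of effects), the 20 widest cone to rod ratios and the genes of highest variance. Tested on simulated data with 200 genes changed by a log2 of 1.5, the fit recovered 164 genes for IL-27 against saline (6 false calls among 10137 genes) and 175 for S against M (3 false calls among 5026 genes). It recovered 64 and 114 for the differences of effects between S and M and between cones and rods. Alternatives were DESeq2 1.42.0, other scalings and filters, depth, doublet, mitochondrial and stricter cone limits, nuclei without Nrl or Nr2e3, thinning, opsin ratio classes, no block, each treatment alone and each library left out. The authors' own annotation of nuclei was not used here, and some genes that the rule names are not reported here. Promoter sequences are RefSeq's, GRCm38.p6.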

Additional observations from a re-analysis of the deposited data

Results flagged for a closer look

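The effect of IL-27 on Fgf14 differed between cones and rods by −1.50 on the log2 scale in a test of the difference itself (edgeR adjusted p = 0.0118). Its mean moved from 90.1 ± 25.6 to 43.0 ± 10.4 CPM in cones and from 111 ± 18.6 to 150 ± 15.8 CPM in rods (SD, n = 3 libraries), with every IL-27 library below saline in cones and above it in rods. Within cones, S-opsin nuclei were at 15.3, 119 and 126 CPM in the saline and 0, 0 and 64.8 CPM in the IL-27 libraries. M-opsin nuclei were at 110, 83.5 and 174 CPM against 57.4, 7.89 and 39.8 CPM. The call was lost in 8 of 16 alternatives.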

How the results depend on the processing

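No paired analysis was possible because the saline and IL-27 libraries share no replicate number in the labels. For S-opsin against M-opsin nuclei, 247 genes were called with no library block, 185 with DESeq2, 481 without the filter on low counts (110 higher and 371 lower, against 153 and 193 with it), 166 with each nucleus thinned to 1000 UMIs, 199 in saline libraries only, 152 in IL-27 libraries only and 242 to 342 with each library left out. For IL-27 against saline, 39 genes were called without the filter on low counts and 0 to 1 with each library left out. For the difference of effects between S and M nuclei, 10 genes were called without that filter, 1 without nuclei over 2 median absolute deviations of depth, 4 at a mitochondrial limit of 1%, 1 with at least 4 cone genes, 8 without nuclei with Nrl or Nr2e3 and 0 to 4 with each library left out. For cones against rods, 40 were called without the filter, 0 without nuclei of outlying depth, Scrublet doublets or nuclei over 1% mitochondrial UMIs, 0 with 1 excluded UMI allowed (added after the data were seen) and 0 to 5 with each library left out. The difference in the share of cone nuclei, 0.40 percentage points, was −1.36 as a share of cones and rods and −0.014 to 0.81 with each library left out. The S-opsin share kept its sign in all 10 alternatives. The log2 fold change of Ptprk was −1.20, and 0.51 without nuclei of outlying depth. The interferon median ran from −0.10 to 0.47 with each library left out, −0.03 without saline replicate 6 (added after the data were seen). The causes were not tested. Of 1123 refits of 52 genes named for S against M, 928 kept the call and 195 lost it. Depth limits the opsin classes: a lack of opsin UMIs in the 339 nuclei with neither, at median depths of 2237 to 2648 UMIs by library, does not show a lack of expression.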
